A study of Mus musculus with 14 samples.

Results

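Replication licensing is described here through 10 genes in LT-HSCs (long-term hematopoietic stem cells, the bone marrow cells that sustain blood formation over a lifetime): the origin-binding and loading factors Orc1, Cdc6 and Cdt1, the 6 subunits of the MCM2-7 helicase, and Mcm10. They were taken by symbol from the 55450 gene identifiers of the deposited count tables, and all 10 were among the 16878 genes with enough reads to test. RNA-seq libraries were made from 5000 sorted cells each, all from old female C57BL/6 donors (over 24 months of age). Selp high-derived (3 libraries) and Selp low-derived (3 libraries) LT-HSCs were CD45.2-positive donor cells, sorted 16 weeks after 1000 Selp high or Selp low cells entered lethally irradiated recipients of 10 to 16 weeks of age. Selp high (4 libraries) and Selp low (4 libraries) LT-HSCs were sorted directly from 4 old mice by surface P-selectin (Selp), an adhesion receptor of platelets, endothelium and some aged stem cells. All 4 groups were lineage-negative, Sca-1-positive, c-Kit-positive, CD48-negative and CD150-positive, and the cells sorted after transplantation carried no P-selectin gate. The sources used here do not say whether each library after transplantation came from its own recipient, or how donors were combined, so p-values measure the spread between these libraries.

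Licensing is the step at which a replication origin becomes able to fire once in the coming S phase. In G1 the origin recognition complex, whose Orc1 subunit follows the cell cycle in human cells, recruits Cdc6 and Cdt1, which load the ring-shaped MCM2-7 helicase onto DNA as an inactive double hexamer. In S phase Cdc45 and GINS join the ring and Mcm10 helps it start unwinding, while geminin and a CUL4 ubiquitin ligase remove Cdt1 activity so that no origin is licensed again. Quiescent cells hold little of these proteins and E2F transcription factors switch their genes on when a cell leaves quiescence, and LT-HSCs are known as mostly quiescent cells.

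Libraries held 22374794 to 38216775 reads assigned to genes. Levels are CPM, the reads of a gene relative to all assigned reads of the library, after scaling with trimmed-mean (TMM) factors. The LT-HSC label was checked against 8 HSC markers, which summed to 3762 to 4185 CPM in Selp high-derived, 2998 to 3714 in Selp low-derived, 4264 to 5189.9 in Selp high and 4572 to 5053 in Selp low libraries. Selp mRNA averaged 701 ± 73.4 CPM in the 4 Selp high libraries, against 566 ± 96.6 CPM in the 4 Selp low libraries (SD). This difference was not called by edgeR (log2 fold change 0.31 ± 0.12 SE, adjusted p = 0.957). In mice 1 to 4 Selp had 664, 764, 760 and 615 CPM in Selp high cells, against 491, 628, 669 and 476 CPM in Selp low cells. It was thus higher in all 4 mice, as were 1848 of the 16878 tested genes. All 10 neutrophil markers were detected in every library. Their sum was 567 to 2159 CPM in Selp high-derived, 1829 to 12375 in Selp low-derived, 811 to 19572 in Selp high and 2558 to 14989.9 in Selp low libraries. The 3 libraries with the highest sums were Selp high 4, Selp low 4 and Selp low-derived 2. These 3 also had the highest sums of 8 erythroid markers, at 1848, 2294 and 1787 CPM, against 127 to 1067 CPM elsewhere. Results that move with these 3 libraries are given with and without them. Over all libraries B cell markers summed to 63.5 to 124 CPM and macrophage markers to 13.1 to 149 CPM. Of 4 T cell markers, none exceeded 2.22 CPM in any library and Cd8a was at 0 in 7 of 14.

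Promoters come first because 7 of the 9 licensing genes with a promoter window share an E2F site. The windows, from RefSeq on GRCm38.p6, run from 250 bases before to 50 after each annotated start, and Mcm4 has no entry in that table. An E2F site was any of TTTCCCGC, TTTCCCGG, TTTCGCGC, TTTCGCGG, TTTGCCGC, TTTGCCGG, TTTGGCGC and TTTGGCGG on either strand. It was found in Orc1, Cdc6, Cdt1, Mcm3, Mcm5, Mcm6 and Mcm7, and in 5.55% of 21263 protein-coding windows of the same length (4.51% of all 32851 windows). Mcm2 and Mcm10 had no match in these letters, nor did the second annotated start of Mcm7. The Mcm10 window ends in TTTGGCG, so a site crossing that edge could not be read. The 4 windows shown are those of Cdt1, Mcm2 and Mcm7, which had the smallest p-values of the comparison of libraries after and before transplantation, and of Mcm10. Each is printed 5′ to 3′ on the gene's own strand, with E2F sites in capitals in Cdt1 and Mcm7, the TTTGAA element in Mcm2 and the CCAAT boxes in Mcm10.

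Cdt1 (chr8:122567765-122568064, plus strand): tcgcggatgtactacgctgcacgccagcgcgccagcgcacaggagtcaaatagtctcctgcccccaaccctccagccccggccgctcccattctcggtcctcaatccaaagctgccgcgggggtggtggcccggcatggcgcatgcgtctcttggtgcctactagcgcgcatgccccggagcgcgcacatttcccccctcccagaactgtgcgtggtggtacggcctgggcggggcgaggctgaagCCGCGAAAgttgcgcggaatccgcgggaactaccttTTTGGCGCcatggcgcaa
Mcm7 (chr5:138171834-138172133, minus strand): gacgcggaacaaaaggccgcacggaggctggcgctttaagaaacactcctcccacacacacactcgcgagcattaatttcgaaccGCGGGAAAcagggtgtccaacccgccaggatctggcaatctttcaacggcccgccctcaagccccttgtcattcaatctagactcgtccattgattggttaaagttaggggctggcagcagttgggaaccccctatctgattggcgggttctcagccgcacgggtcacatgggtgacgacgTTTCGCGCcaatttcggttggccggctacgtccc
Mcm2 (chr6:88898731-88899030, minus strand): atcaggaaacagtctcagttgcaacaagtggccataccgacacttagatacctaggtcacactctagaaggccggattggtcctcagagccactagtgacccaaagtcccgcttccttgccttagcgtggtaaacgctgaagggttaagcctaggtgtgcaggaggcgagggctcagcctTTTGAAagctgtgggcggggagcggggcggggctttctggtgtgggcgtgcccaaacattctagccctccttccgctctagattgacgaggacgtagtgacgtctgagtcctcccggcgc
Mcm10 (chr2:5012742-5013041, minus strand): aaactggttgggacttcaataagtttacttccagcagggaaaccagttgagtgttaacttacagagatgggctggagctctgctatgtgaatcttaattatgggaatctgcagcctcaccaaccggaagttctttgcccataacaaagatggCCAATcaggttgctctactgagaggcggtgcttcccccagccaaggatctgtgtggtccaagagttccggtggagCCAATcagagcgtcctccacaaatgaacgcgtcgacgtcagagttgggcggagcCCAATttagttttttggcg

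In Cdt1 the first E2F site spanned the annotated start, from -4 to 4, and the second lay at 33 to 40, counting from 1 at the first transcribed base. In Mcm7 the sites lay at -165 to -158 and at 17 to 24, the second sharing its last base with a CCAAT box. Other windows held 1 site (Cdc6 at -138 to -131, Orc1 at -27 to -20), 2 separate sites in Mcm3, 2 overlapping matches in Mcm5, and in Mcm6 1 overlapping pair and 1 separate site. The CCAAT box (CCAAT, either strand), bound by NF-Y, was present in 7 of 9 genes, all but Cdc6 and Cdt1, against 38.2% of protein-coding windows. A GC box (GGGCGG, either strand), bound by Sp1-type factors, was present in 7 of 9, all but Mcm5 and Cdc6, against 46.2%. The cell cycle homology element (TTTGAA, either strand), typical of G2 and M phase genes, was found in Mcm2 alone of the 9, against 16.0%. Matches are descriptions of these windows and not of binding. The RefSeq start is also the 5′ end of the gene as given below for Mcm2, Mcm3, Cdt1 and Mcm10, and lies elsewhere for the other 5 genes.

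**Figure D1:**
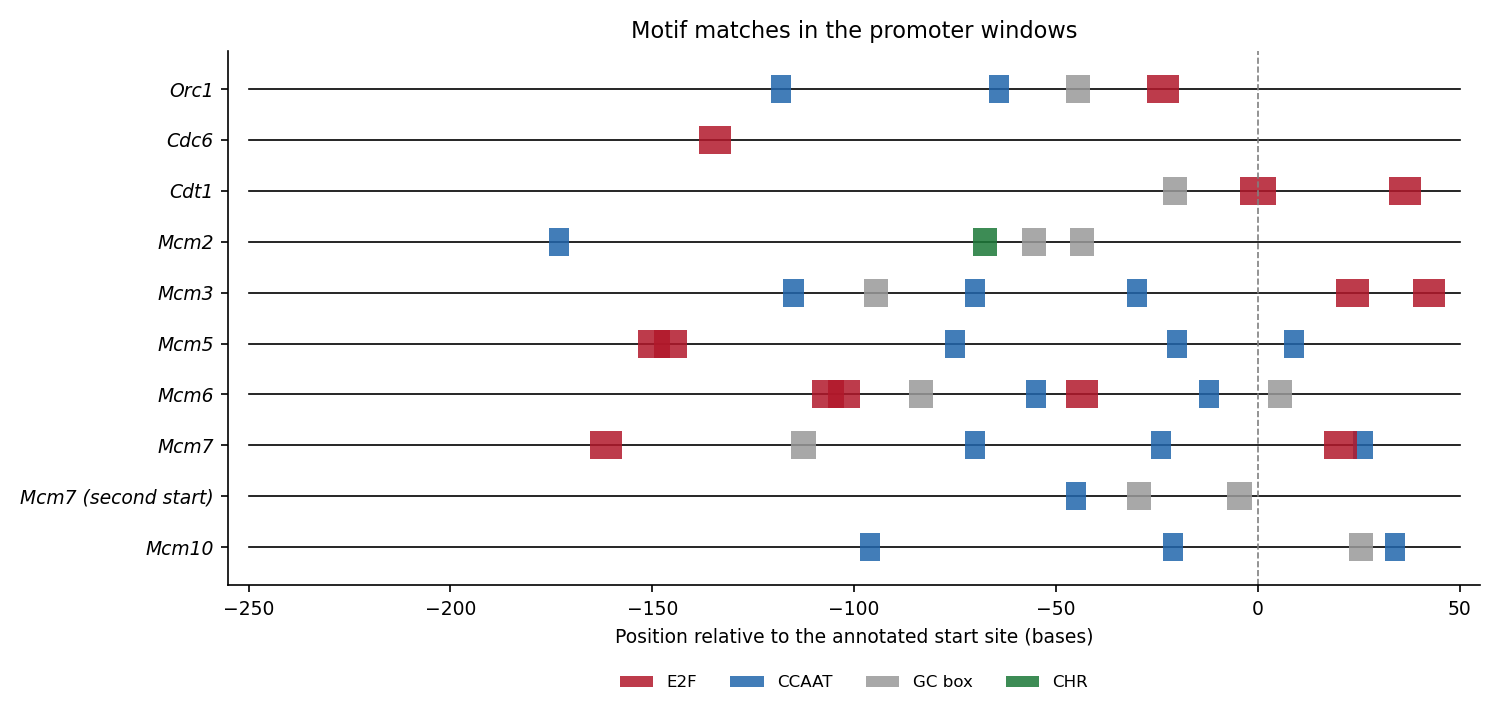
Positions of E2F, CCAAT, GC box and TTTGAA (CHR) matches on either strand in the promoter windows of 9 licensing genes, in bases from the annotated start (dashed line); each horizontal line is 1 window and Mcm7 has 2. E2F matches are present in 7 of the 9 genes and sit on both sides of the start. The windows of Mcm2 and Mcm10 hold no full match, and that of Mcm10 ends within a partial one.

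All 10 genes had more transcript after transplantation than before it, in both inputs. In Selp high-derived against Selp high LT-HSCs, 10 of 10 rose (edgeR quasi-likelihood test, Benjamini-Hochberg adjusted p under 0.05), where 7.63% of all tested genes did, with log2 fold changes of 1.23 to 2.89. In Selp low-derived against Selp low LT-HSCs, 10 of 10 rose, where 5.01% of all tested genes did, with log2 fold changes of 0.75 to 1.95. These 10 genes and the replication lists below were chosen with earlier results of these data known, so shares beside them are descriptive. Averaged over both inputs, 10 of 10 rose against 12.9% of all tested genes, with a median log2 fold change of 1.36 against -0.01 over all tested genes. In this averaged comparison 2175 genes rose and 2456 fell, so 47.0% of the called genes were higher, which became 58.2% when libraries were scaled by size alone, with 10 of 10 licensing genes higher in both. Within the Selp low input the share was 43.6%, and 57.9% with that scaling. These are bulk libraries, in which fewer cells of a type and less RNA per cell cannot be told apart. The stages also differ in host, host age, time and P-selectin gate, whose parts cannot be told apart. Selp mRNA averaged 300 ± 15.7 CPM in Selp high-derived and 269 ± 23.7 CPM in Selp low-derived libraries (SD). It was called lower after than before transplantation over both inputs (edgeR log2 fold change -1.15, adjusted p = 3.54e-06).

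Orc1 (ENSMUSG00000028587.18, chr4:108579423-108614833, plus strand; GRCm38 in this and all later positions) encodes the origin recognition subunit that also binds Cdc6. It had 9.17, 8.61 and 9.76 CPM in Selp high-derived libraries 1 to 3 and 14.9, 10.5 and 11.6 CPM in Selp low-derived libraries 1 to 3. Before transplantation it had 2.37, 1.61, 2.99 and 4.63 CPM in Selp high libraries 1 to 4 and 2.73, 2.46, 4.40 and 6.64 CPM in Selp low libraries 1 to 4. Every library after transplantation exceeded every library before it, and Orc1 was the licensing gene with the fewest reads. Its log2 fold change over both inputs was 1.63 ± 0.26 (SE, adjusted p = 0.000382), and it was 1.66 ± 0.37 for Selp high and 1.61 ± 0.36 for Selp low input. An antisense transcript, Gm12743, shares 376 of its 3479 exon bases, and without strand reads there may have been set apart as ambiguous, so its level is uncertain.

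Cdc6 (ENSMUSG00000017499.15, chr11:98907801-98923940, plus strand) encodes the ATPase that joins the origin complex and opens the way for Cdt1 and the MCM ring. Its levels were 67.4, 70.6 and 87.1 CPM in Selp high-derived libraries 1 to 3 and 91.3, 46.9 and 53.3 CPM in Selp low-derived libraries 1 to 3. In the cells sorted from old mice they were 12.9, 11.5, 10.7 and 22.5 CPM in Selp high libraries 1 to 4 and 12.1, 18.0, 17.3 and 36.6 CPM in Selp low libraries 1 to 4. The stages did not overlap, and in each input group before transplantation the library of mouse 4 was the highest. Cdc6 rose 3.98-fold over both inputs (log2 fold change 1.99 ± 0.25 SE, adjusted p = 6.53e-05).

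Cdt1 (ENSMUSG00000006585.3, chr8:122568015-122573554, plus strand) encodes the loader that brings MCM2-7 to the origin and is the target of geminin. It reached 81.6, 76.5 and 95.9 CPM in Selp high-derived libraries 1 to 3 and 108, 54.6 and 73.7 CPM in Selp low-derived libraries 1 to 3. Before transplantation it stood at 23.0, 22.1, 19.0 and 26.6 CPM in Selp high libraries 1 to 4 and 33.6, 33.7, 28.6 and 45.6 CPM in Selp low libraries 1 to 4. Again the stages did not overlap. Cdt1, whose E2F sites lie at and after the start in the window printed above, had the smallest p-value of the 10 genes (2.89-fold, log2 fold change 1.53 ± 0.15 SE, adjusted p = 1e-05). Its log2 fold change was 1.90 ± 0.21 for Selp high and 1.16 ± 0.21 for Selp low input.

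The 6 helicase subunits, which sit in a fixed order around 1 ring, rose together by 1.03 to 1.52 on the log2 scale over both inputs. Mcm2 (ENSMUSG00000002870.8, chr6:88883474-88898780, minus strand), the subunit that also chaperones histones at the fork, had 429, 419 and 435 CPM in Selp high-derived libraries 1 to 3 and 529.6, 275 and 373 CPM in Selp low-derived libraries 1 to 3. It had 134, 149, 156 and 186 CPM in Selp high libraries 1 to 4 and 166, 201, 204 and 247 CPM in Selp low libraries 1 to 4. The 3 Selp high-derived libraries differed little and the 3 Selp low-derived ones spread widely, with replicate 1 the highest and replicate 2 the lowest of the 6, and all lay above the 8 libraries before transplantation. Mcm2 rose 2.29-fold (log2 fold change 1.20 ± 0.13 SE, adjusted p = 2.34e-05).

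Mcm5 (ENSMUSG00000005410.6, chr8:75109569-75128439, plus strand), which with Mcm2 forms the gate through which the ring opens around DNA, changed most of the 6. It had 352, 391 and 437 CPM in Selp high-derived libraries 1 to 3 and 589, 224 and 372 CPM in Selp low-derived libraries 1 to 3. Its levels before transplantation were 111, 82.7, 97.5 and 152 CPM in Selp high libraries 1 to 4 and 157, 164, 161 and 201 CPM in Selp low libraries 1 to 4. The stages did not overlap, and the rise was 2.86-fold (log2 fold change 1.52 ± 0.18 SE, adjusted p = 4.79e-05).

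Mcm3 (ENSMUSG00000041859.10, chr1:20802968-20820312, minus strand), the ring subunit that contacts the loading factors, had 534, 559 and 620.1 CPM in Selp high-derived libraries 1 to 3 and 665, 276 and 459.9 CPM in Selp low-derived libraries 1 to 3. Its earlier levels were 204, 203, 191 and 251 CPM in Selp high libraries 1 to 4 and 216, 289, 282 and 321 CPM in Selp low libraries 1 to 4. Here the stages overlapped, because Selp low-derived replicate 2 lay below 3 of the 4 Selp low libraries. Mcm3 nevertheless rose 2.13-fold over both inputs (log2 fold change 1.09 ± 0.16 SE, adjusted p = 0.00017). Within the Selp low input its call was less secure, being lost in 9 of 14 runs that each left out 1 library.

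Mcm4 (ENSMUSG00000022673.5, chr16:15623897-15637400, minus strand), part of the catalytic core with Mcm6 and Mcm7, had 265, 288 and 314 CPM in Selp high-derived libraries 1 to 3 and 353, 188 and 258 CPM in Selp low-derived libraries 1 to 3. It had 103, 116, 123 and 150.3 CPM in Selp high libraries 1 to 4 and 109, 152, 147 and 189 CPM in Selp low libraries 1 to 4. Selp low-derived replicate 2 lay just under Selp low replicate 4, the only overlap of the stages, and Mcm4 had the smallest change of the 10 genes (log2 fold change 1.03 ± 0.14 SE, adjusted p = 0.000142).

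Mcm6 (ENSMUSG00000026355.11, chr1:128331590-128359664, minus strand), the subunit with the most reads, had 872, 908 and 1039.5 CPM in Selp high-derived libraries 1 to 3 and 1187, 569 and 781 CPM in Selp low-derived libraries 1 to 3. Levels before transplantation were 388, 322, 355 and 442 CPM in Selp high libraries 1 to 4 and 423, 465, 504 and 537 CPM in Selp low libraries 1 to 4. The stages did not overlap, and Mcm6 rose 2.09-fold (log2 fold change 1.06 ± 0.14 SE, adjusted p = 7.49e-05). Mcm7 (ENSMUSG00000029730.16, chr5:138164583-138172422, minus strand) had 372, 350.2 and 403 CPM in Selp high-derived libraries 1 to 3 and 488, 237 and 313 CPM in Selp low-derived libraries 1 to 3. Its levels were 119.8, 108, 134 and 162 CPM in Selp high libraries 1 to 4 and 173, 178, 181 and 214 CPM in Selp low libraries 1 to 4. The stages did not overlap, and Mcm7 rose 2.30-fold (log2 fold change 1.20 ± 0.14 SE, adjusted p = 3.41e-05). Of the 4426 exon bases of Mcm7, 557 are shared with other genes, namely Ap4m1 and Cops6 on the other strand and the microRNA genes Mir25 and Mir93 on its own. Reads there may have been set apart as ambiguous, so the level of Mcm7 is uncertain.

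Mcm10 (ENSMUSG00000026669.14, chr2:4989714-5012791, minus strand), which acts on the assembled helicase at the onset of unwinding, changed most of all 10. It had 44.3, 40.6 and 48.1 CPM in Selp high-derived libraries 1 to 3 and 64.1, 25.0 and 35.5 CPM in Selp low-derived libraries 1 to 3. It had 6.27, 4.03, 3.65 and 10.0 CPM in Selp high libraries 1 to 4 and 11.4, 5.88, 8.29 and 17.4 CPM in Selp low libraries 1 to 4. The stages did not overlap. Mcm10 rose 5.36-fold over both inputs (log2 fold change 2.42 ± 0.29 SE, adjusted p = 4.23e-05), 7.41-fold for Selp high and 3.87-fold for Selp low input. Its promoter window holds no full match to the searched E2F forms. The window ends in TTTGGCG, which begins TTTGGCGC and TTTGGCGG, so a site crossing that edge could not be read.

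**Figure D2:**
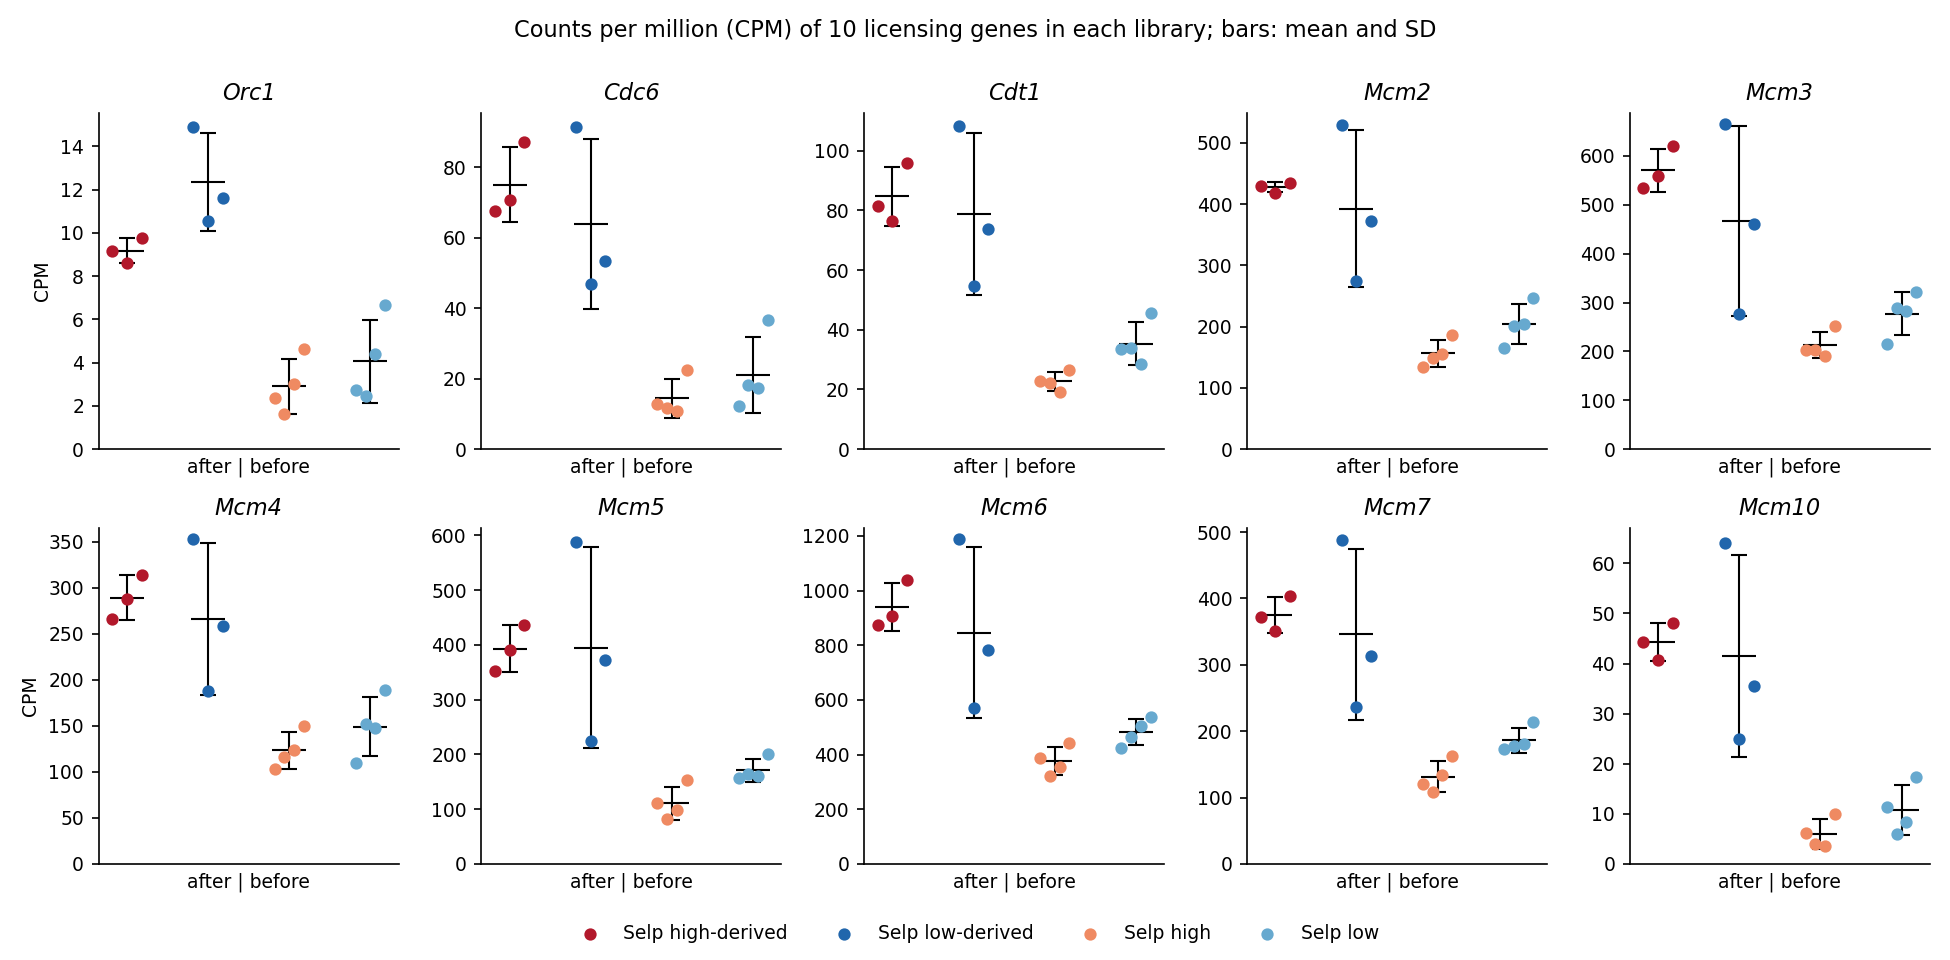
CPM (linear axes from 0) of the 10 licensing genes, 1 point per library, for Selp high-derived, Selp low-derived, Selp high and Selp low cells from left to right; bars are the mean and SD (n = 3, 3, 4 and 4). The 6 libraries after transplantation lie above the 8 before it in 8 of the 10 panels, with overlap in Mcm3 and Mcm4, and Selp low-derived libraries spread most.

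Over both inputs the libraries after transplantation all lay above those before it in 8 of 10 licensing genes, against 4.28% of all tested genes. Within the Selp high input this held for 10 of 10 (14.5% of all tested genes) and within the Selp low input for 8 of 10 (10.2%). The rise within the Selp low input rested in part on 1 library. Without Selp low-derived replicate 1, which had the highest level of all 14 libraries in each of the 10 genes, 10 of 10 remained higher but only Cdt1 and Mcm2 passed the test, with a median log2 fold change of 0.73 in place of 1.05. With only the 7 libraries of that comparison in the fit, 7 of 10 passed, and Mcm3, Mcm4 and Mcm6 did not. The calls for Selp high input and for both inputs together were 10 of 10 in every alternative run. Without the 3 libraries high in neutrophil markers 10 of 10 also rose within the Selp low input, with a median of 1.38, and over both inputs, with a median of 1.58.

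**Figure D3:**
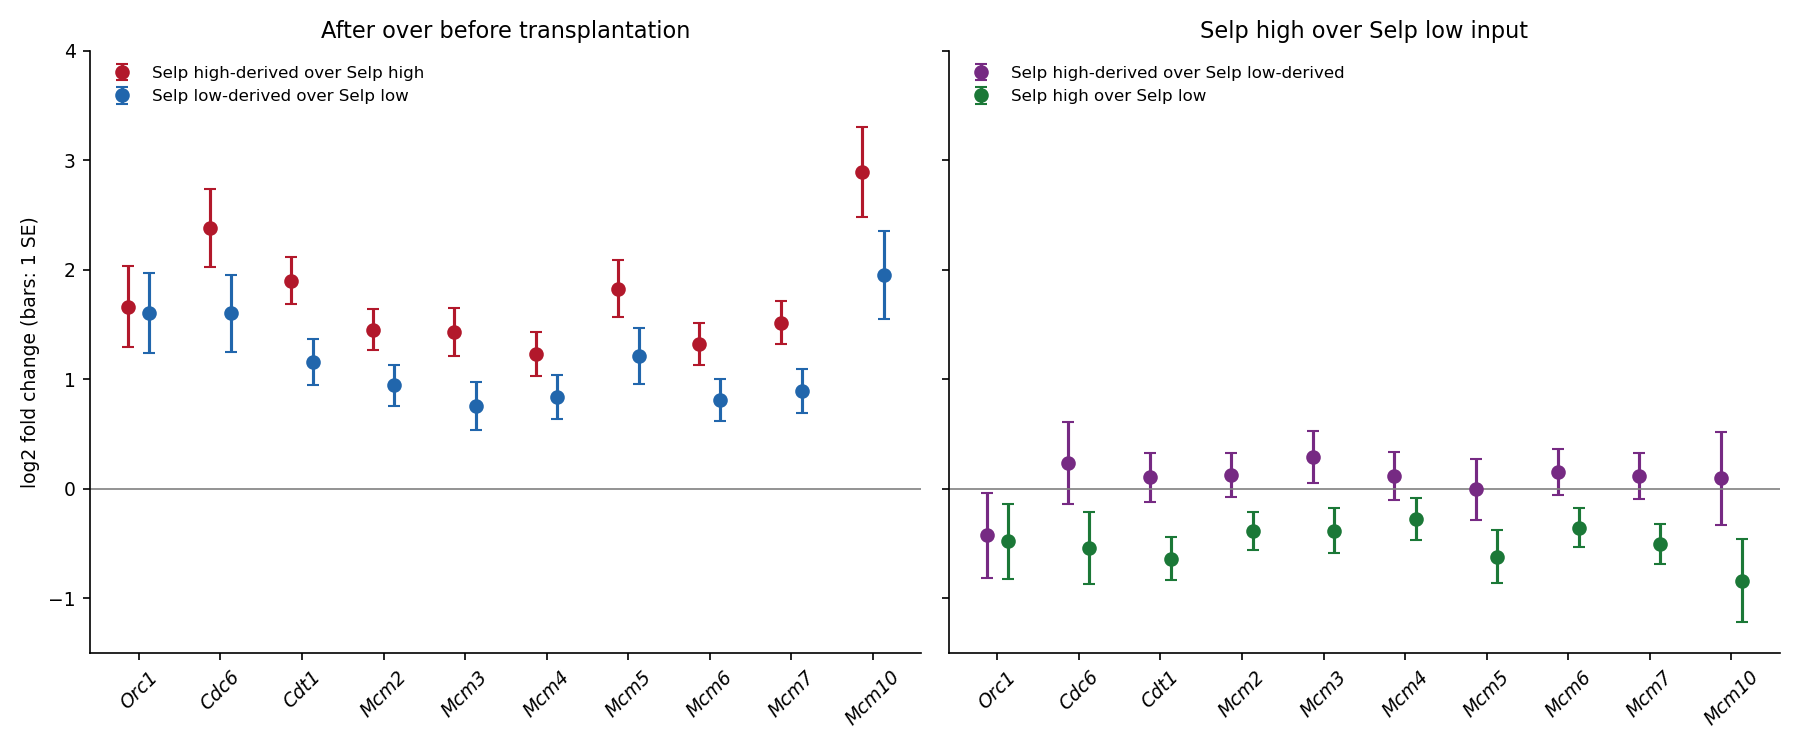
Log2 fold changes with their standard errors (bars, 1 SE of the edgeR fit) for each licensing gene; left, Selp high-derived over Selp high and Selp low-derived over Selp low; right, Selp high-derived over Selp low-derived and Selp high over Selp low. All values on the left lie between 0.75 and 2.89, while on the right those after transplantation lie between -0.43 and 0.29 and those before it all lie below 0.

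Other replication genes rose as well. Of the 79 further genes on 8 replication lists, 61 rose and 2 fell over both inputs, where 12.9% of all tested genes rose and 14.6% fell, with a median log2 fold change of 0.89, against 1.36 for the 10 licensing genes. Among the inhibitor and turnover genes of Cdt1, 3 of 6 rose. Dtl averaged 136 ± 32.3 CPM after and 29.0 ± 14.02 CPM before transplantation, a log2 fold change of 2.25 ± 0.27 (adjusted p = 4.8e-05); its protein directs the CUL4 ligase to Cdt1 on the sliding clamp. Gmnn, the geminin gene, averaged 51.8 ± 13.04 CPM after and 17.9 ± 7.45 CPM before transplantation, a log2 fold change of 1.54 ± 0.25 (adjusted p = 0.000458). The ligase subunits did not pass the test, with log2 fold changes of 0.16 ± 0.10 for Ddb1 and 0.22 ± 0.09 for Cul4b. Cdt1 and geminin both rose, and the ratio of their CPM, not scaled by length, was 1.66 ± 0.269 in Selp high-derived, 1.54 ± 0.319 in Selp low-derived, 1.53 ± 0.533 in Selp high and 1.995 ± 0.608 in Selp low libraries (mean ± SD), with overlapping ranges.

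The other origin recognition genes had log2 fold changes of 0.12 to 0.85, against 1.63 ± 0.26 for Orc1. Of 6 (Orc2 to Orc6 and Lrwd1), 3 rose, with a list median of 0.30. Orc6 averaged 51.8 ± 8.55 CPM after and 28.7 ± 4.03 CPM before transplantation, a log2 fold change of 0.85 ± 0.12 (adjusted p = 0.000139), Lrwd1, which helps hold the complex on chromatin, changed by 0.49 ± 0.09, and Orc3, the most expressed, by 0.31 ± 0.09 (adjusted p = 0.0168). Orc5 did not pass, at 0.12 ± 0.08. The 3 MCM-related genes all rose. Mcm8, a helicase subunit of recombination rather than licensing, averaged 27.8 ± 8.33 CPM after and 12.6 ± 1.61 CPM before transplantation, a log2 fold change of 1.14 ± 0.17 (adjusted p = 0.000254). Its partner Mcm9 changed by 0.37 ± 0.11 and Mcmbp, which binds free MCM subunits, by 0.43 ± 0.09.

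Of 13 genes that turn the loaded ring into a working helicase, 11 rose, with a median of 1.08. Ticrr averaged 25.1 ± 6.64 CPM after and 4.66 ± 2.85 CPM before transplantation, a log2 fold change of 2.48 ± 0.30 (adjusted p = 5.1e-05); its protein, treslin, brings Cdc45 to the ring with Topbp1. Gins2, a subunit of the GINS complex, changed by 1.55 ± 0.17, Wdhd1, which ties the helicase to polymerase alpha, by 1.64 ± 0.20, and Topbp1 by 1.08 ± 0.16, all called. Nucleotide supply genes had a median of 1.38, the nearest of the 8 lists to that of the licensing genes, and 7 of 8 rose. Tk1, thymidine kinase, changed by 2.26 ± 0.24 and Rrm1, the large subunit of ribonucleotide reductase, by 1.39 ± 0.15 (adjusted p = 1.76e-05 and 2.17e-05). Dctpp1, a nucleotide pyrophosphatase, changed by 0.50 ± 0.15.

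All 17 clamp, loader and fork genes rose, with a median of 0.91. Among them were Timeless of the fork protection complex (2.13 ± 0.24), Rpa2 of the single-strand binding complex (1.03 ± 0.11) and the clamp loader subunit Rfc2 (0.80 ± 0.11). Fen1, also among them, had only 8 to 47 reads per library, so its change is uncertain. Of 12 polymerase genes 9 rose and 1, Pold4, fell by 0.60; Pold1, the catalytic subunit of polymerase delta, changed by 1.23 ± 0.14 and Pola2 of polymerase alpha by 0.92 ± 0.11. Of 14 E2F, RB and S-phase cyclin genes 8 rose and 1 fell. The E2F repressors' partner Rbl1 changed by 1.11 ± 0.17 and cyclin A2, Ccna2, by 1.95 ± 0.32, and the repressor E2f7 by 1.55 ± 0.25, all called, whereas Rbl2, the pocket protein of quiescent cells, changed by -0.27 ± 0.09 (adjusted p = 0.032). The repressive E2f4 changed by 0.25 ± 0.08 and Cdc25a, a phosphatase that activates CDK2, by 0.54 ± 0.09. All 6 proliferation markers rose, Mki67 by 2.18 ± 0.38 and Top2a by 2.51 ± 0.27 on the log2 scale; their sum was 669.9 to 1064 CPM in Selp high-derived, 537 to 1146 in Selp low-derived, 82.8 to 229 in Selp high and 142 to 353 in Selp low libraries. Of 5 markers of multipotent and committed progenitors 2 rose, and the sum of the 5 was 333 to 473, 247 to 391, 119 to 204 and 167 to 219.6 CPM in the same groups, while 5 of the 8 HSC markers fell. Cd34 made up most of the progenitor sum. Of 4 tested megakaryocyte and platelet markers 2 rose and 1 fell. Pf4 averaged 75.0 ± 22.1 CPM after and 14.6 ± 9.93 CPM before transplantation (2.32 ± 0.33 on the log2 scale), Ppbp 8.13 ± 2.25 CPM after and 1.48 ± 0.524 CPM before (2.51 ± 0.23), and Gp9 35.6 ± 4.71 CPM after and 51.2 ± 3.31 CPM before (-0.53 ± 0.09), while Gp1bb was at 0 in 5 of 14 libraries. The part of cycling cells, progenitors or megakaryocytes in the licensing rise was not tested.

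**Figure D4:**
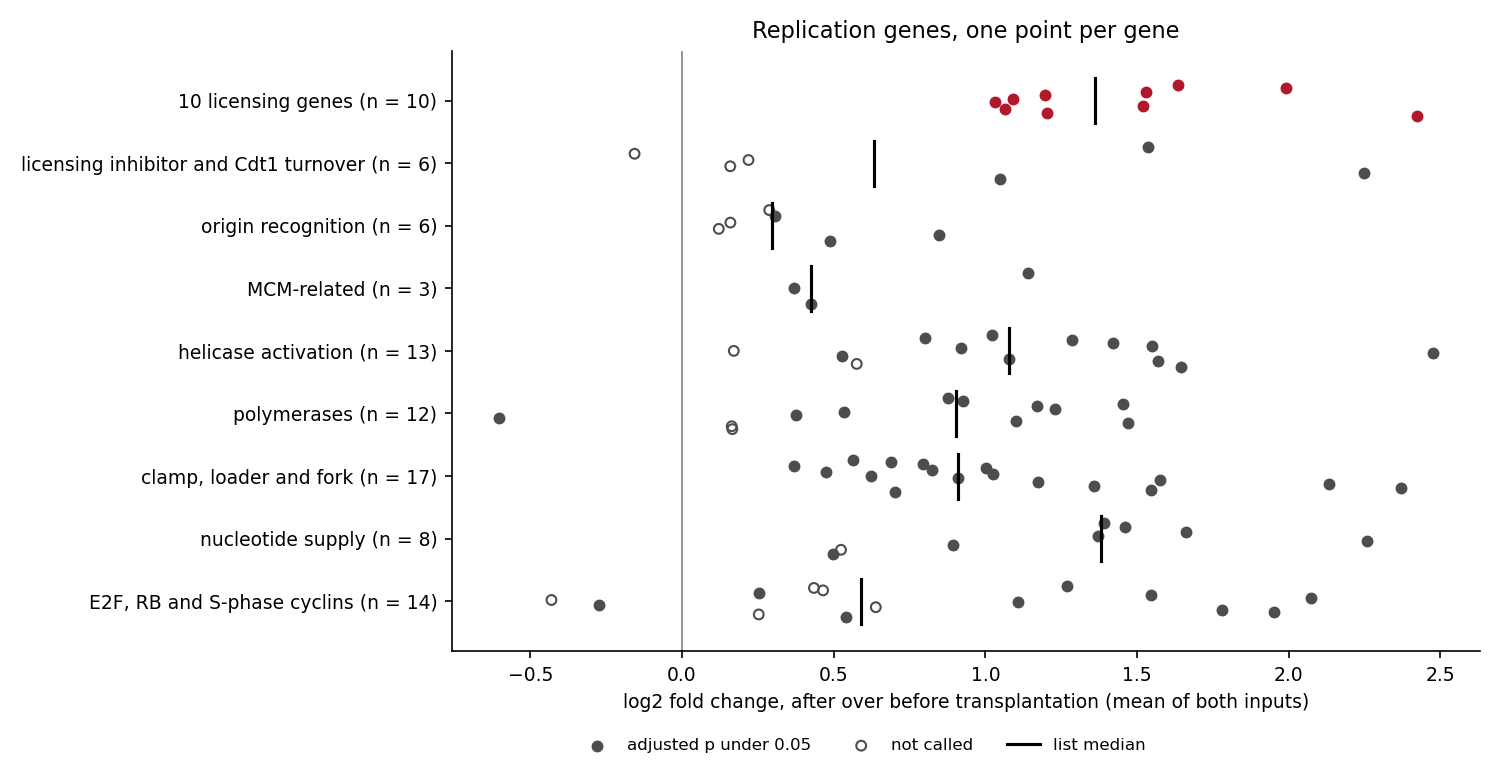
Log2 fold change of libraries after over before transplantation, averaged over both inputs, for the 10 licensing genes (red) and the 79 genes of 8 other replication lists; filled points passed an adjusted p of 0.05, open points did not, and the black line is each list's median. The licensing genes run from 1.03 to 2.42, and the origin recognition list has the lowest median, 0.30.

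Before transplantation all 10 licensing genes had lower levels in Selp high than in Selp low LT-HSCs, and none passed the test across all genes. The log2 fold changes ran from -0.84 for Mcm10 to -0.28 for Mcm4, with a median of -0.49 against -0.02 over all tested genes. Each had an adjusted p of 0.957 in the edgeR test, and 0% of the 16878 genes were called, with 863 of them, 5 licensing genes included, at an unadjusted p under 0.05. DESeq2 and limma voom also called 0 of the 10, with 11 and 0 genes called in all. With the mouse as a replicate block, 2 genes were called in all and 0 of the 10, whose adjusted p ran from 0.132 for Mcm7 to 0.352 for Orc1.

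Cdt1 averaged 22.7 ± 3.14 CPM in Selp high cells, against 35.4 ± 7.22 CPM in Selp low cells (SD, n = 4 each), a log2 fold change of -0.64 ± 0.20 (unadjusted p = 0.00565 by the edgeR test). The 4 Selp high libraries all lay below the 4 Selp low ones. Mcm5 averaged 111 ± 30.0 CPM in Selp high cells, against 171 ± 20.5 CPM in Selp low cells (-0.62 ± 0.24 on the log2 scale). Mcm7 averaged 131 ± 23.3 CPM in Selp high cells, against 186 ± 18.5 CPM in Selp low cells (-0.51 ± 0.18). These 3 of 10 were the licensing genes whose groups did not overlap, against 1.56% of all tested genes lower without overlap. Mcm10 averaged 5.99 ± 2.92 CPM in Selp high cells, against 10.7 ± 4.96 CPM in Selp low cells (-0.84 ± 0.38), with overlap.

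Taken mouse by mouse, 9 of 10 licensing genes were lower in the Selp high than in the Selp low cells of all 4 mice, against 12.2% of all tested genes, and 39 of the 40 ratios of a gene in a mouse were below 0. Cdt1 had log2 ratios of -0.55, -0.61, -0.59 and -0.78 in mice 1 to 4 and Mcm2 had -0.31, -0.43, -0.39 and -0.41. Both varied little between mice. Mcm10 had -0.87, -0.54, -1.19 and -0.79 and Mcm5 -0.50, -0.99, -0.72 and -0.40. Cdc6 was the exception, at 0.09, -0.64, -0.69 and -0.70, with mouse 1 above 0. Leaving out mouse 4 could not change these 9 genes. A gene lower in all 4 mice is also lower in the 3 left, so this is no separate check. The genes move together within a library, so these counts are not 10 separate observations.

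**Figure D5:**
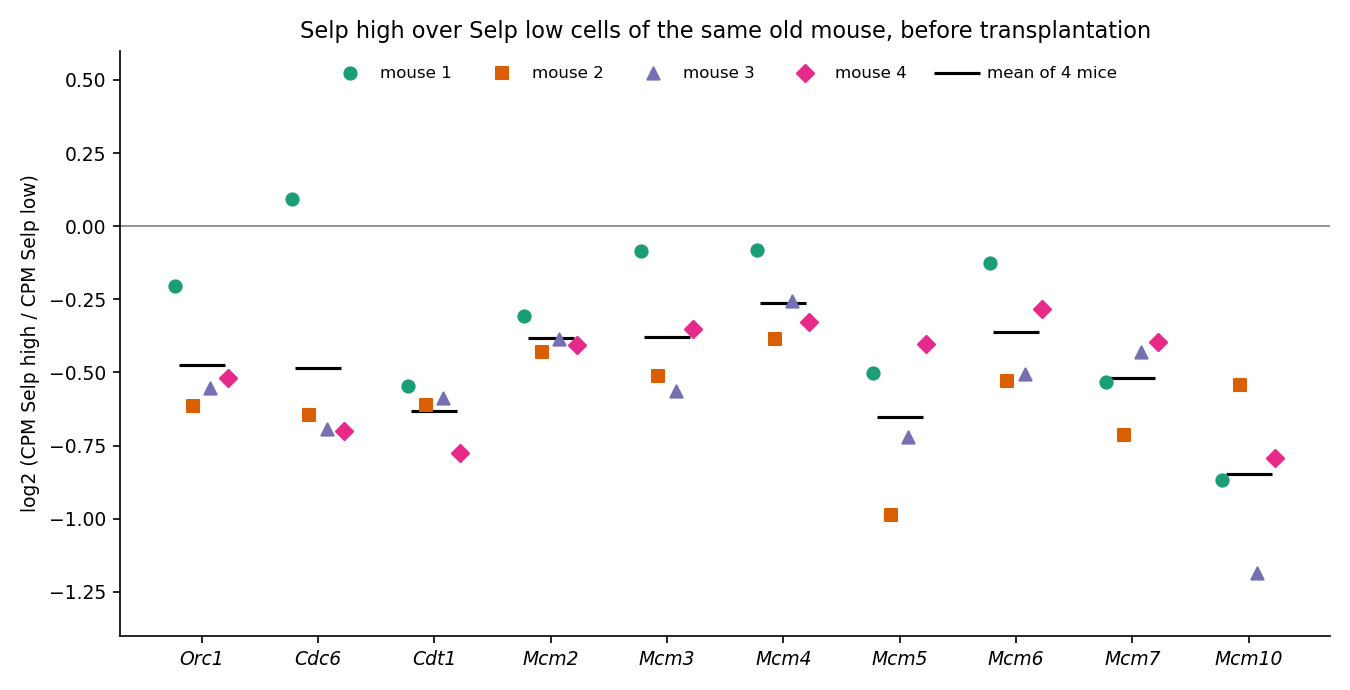
Log2 ratio of CPM in Selp high over Selp low cells of the same old mouse, for each licensing gene and each of 4 mice (symbols), with the mean of the 4 (black line). All but 1 of the 40 points lie below 0, the exception being Cdc6 in mouse 1. Mouse 1 has the highest ratio in Orc1, Cdc6, Cdt1, Mcm2, Mcm3, Mcm4 and Mcm6, but not in Mcm5, Mcm7 and Mcm10.

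The libraries of mouse 4 had the highest licensing levels of their groups. The mean log2 CPM of the 10 genes was 6.09 in Selp high replicate 4 and 5.40 to 5.59 in the other Selp high libraries, and 6.59 in Selp low replicate 4 and 5.90 to 6.10 in the other Selp low libraries. Both also had the highest neutrophil and erythroid marker sums of their groups. Their Mki67 levels were the highest too, at 42.5 CPM in Selp high replicate 4 and 57.3 CPM in Selp low replicate 4. Without them the median log2 fold change of Selp high over Selp low was -0.44, and 10 of 10 licensing genes were lower, with 0 called. Leaving out Selp low replicate 4 alone moved the median from -0.49 to -0.30, with Cdc6, Orc1 and Mcm4 each at -0.14, and leaving out Selp high replicate 4 alone moved it to -0.68. All 10 were lower and 0 called in both cases. The part of these markers in the licensing levels was not tested.

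Other replication genes were mostly lower in Selp high cells too. Of the 79, 63 were lower and 16 higher, with a median of -0.19, and 0 were called. Timeless had a log2 fold change of -0.96 ± 0.32, Tk1 of -0.89 ± 0.31, Pold1 of -0.57 ± 0.18 and Pola2 of -0.55 ± 0.14, each at an adjusted p of 0.957. The origin recognition list ran the other way, with 5 of 6 above 0 and a median of 0.11, Orc5 at 0.23 ± 0.11 and Lrwd1 at -0.28 ± 0.13. Cul4b stood at 0.38 ± 0.12 and Dtl at -0.51 ± 0.36, and geminin at -0.20 ± 0.33. The 6 proliferation markers were all lower, with a median log2 fold change of -0.60, with none called. Of 5 progenitor markers 4 were lower and 0 called, Flt3 at -1.11 ± 0.31 (edgeR adjusted p = 0.957), with marker sums of 119 to 204 CPM in Selp high and 167 to 219.6 CPM in Selp low libraries. Their part in the licensing difference was not tested.

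After transplantation no licensing gene was distinguished between the 2 inputs. In cells derived from Selp high input, set against those derived from Selp low input, 8 of 10 were higher and 2 lower, between -0.43 for Orc1 and 0.29 for Mcm3 on the log2 scale. None was called, as 0% of all tested genes were in the edgeR test, and none had an unadjusted p under 0.05 (765 genes did in all; DESeq2 called 25 genes and voom 0, none of them among the 10). Mcm3 averaged 571 ± 44.2 CPM in the 3 Selp high-derived libraries and 467 ± 194 CPM in the 3 Selp low-derived libraries (SD), a log2 fold change of 0.29 ± 0.24. Mcm5 averaged 393 ± 42.5 CPM in Selp high-derived libraries and 395 ± 184 CPM in Selp low-derived libraries (-0.01 ± 0.28). The spread within the Selp low-derived group exceeded these differences. Orc1 was the only 1 of the 10 whose groups did not overlap, at 9.18 ± 0.576 CPM in Selp high-derived libraries and 12.3 ± 2.27 CPM in Selp low-derived libraries (-0.43 ± 0.39, adjusted p = 0.979), where 5.55% of all tested genes were lower without overlap. Selp low-derived replicate 2 had the lowest level of the 6 libraries in 9 of the 10 genes, Orc1 being the exception. This library also had the highest neutrophil and erythroid sums of the 6. Without it the median log2 fold change was -0.09 in place of 0.12, with 8 of 10 lower, so 6 genes turned direction. Without Selp low-derived replicate 1 it was 0.43, with 9 of 10 higher.

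Whether the Selp difference itself changed through transplantation was tested as the difference after minus the difference before. It was above 0 in 10 of 10 licensing genes, from 0.05 ± 0.51 for Orc1 to 0.94 ± 0.57 for Mcm10, with a median of 0.62. That median depended on the Selp low-derived libraries: it was 0.37 without replicate 2, with 9 of 10 above 0, and 0.99 without replicate 1, with 10 of 10. Without the 3 libraries high in neutrophil markers it was 0.43, with 9 of 10 above 0. None was called, and 0% of all tested genes were. The lowest unadjusted edgeR p-values were 0.0256 for Cdt1 (0.74 ± 0.30), 0.0426 for Mcm7 (0.63 ± 0.28) and 0.0494 for Mcm3 (0.67 ± 0.31), 3 of 874 such genes in all, and adjusted p-values were 0.879 to 0.993. DESeq2 called 11 genes and voom 0, none of them among the 10. The comparisons before and after transplantation use different libraries but share 1 estimate of the spread. Those across stages and the difference of differences reuse the same libraries. Their values therefore stand side by side and do not support each other.

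Levels of different genes were compared as CPM per kilobase of annotated exon. In order they ran Mcm6, Mcm3, Mcm5, Mcm7, Mcm4, Mcm2, Cdt1, Cdc6, Mcm10 and Orc1. Mcm6 averaged 201 ± 18.9 CPM per kilobase in Selp high-derived, 181 ± 67.2 in Selp low-derived, 80.8 ± 10.9 in Selp high and 103 ± 10.6 in Selp low cells. At the other end Orc1 averaged 2.64 ± 0.165, 3.55 ± 0.652, 0.833 ± 0.37 and 1.17 ± 0.553 CPM per kilobase in the same groups. Helicase subunits thus stood above the loaders, and of the loaders Cdt1 stood above Cdc6 and Cdc6 above Orc1 in all 14 libraries. Neighbours that did not separate were Mcm5 and Mcm7 (11 of 14 libraries in that order), Mcm7 and Mcm4 (5 of 14) and Mcm10 and Orc1 (11 of 14). The order of Mcm2, Mcm5, Mcm7 and Mcm4 depended on the length used, since the longest coding transcript put Mcm7 and Mcm2 before Mcm5 and Mcm4.

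The share of each subunit in the summed CPM of the 6 described the make-up of the helicase transcripts. Mcm6 made up 31.3% ± 0.582 in Selp high-derived, 31.3% ± 0.839 in Selp low-derived, 33.98% ± 1.80 in Selp high and 32.9% ± 1.34 in Selp low cells (SD). Mcm5 ranged most in relation to its share, between 8.42% and 15.4% over the libraries, with means of 13.1% ± 0.564, 14.2% ± 1.43, 9.86% ± 1.29 and 11.6% ± 0.741 in the same groups. Its share was thus lowest in the Selp high cells sorted from old mice, and Mcm4, at 9.65% ± 0.242, 9.99% ± 0.688, 11.1% ± 0.942 and 10.1% ± 0.962, was highest there. These shares are descriptions, without a test.

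Licensing genes varied together between replicate libraries. After the mean of its group was taken from each log2 CPM, r was 0.49 to 0.97 (median 0.81) over the 45 pairs of genes and 0.83 to 0.97 over the 15 pairs of helicase subunits, across 14 libraries whose depth, sort and cell mixture all genes share. The mean deviation of the 10 genes was 0.54 in Selp low-derived 1, -0.50 in Selp low-derived 2 and 0.44 in both Selp high 4 and Selp low 4. In the other libraries it lay between -0.25 and 0.13, so these libraries weigh most in r. Mcm2 and Mcm4 had the highest r, and Orc1 and Cdt1 the lowest; Orc1 had a median of 0.65 with the other 9. Of 9792 other genes of sufficient level, the 10 nearest to the mean deviation of the licensing genes were Rrm1 (r = 0.98), Cdc45 (0.96), Chaf1a (0.95), Uhrf1, Ccnb1 and Vrk1 (0.94 each) and Bcl2l13, Fignl1, Ube2t and Aurka (0.93 each). Rrm1 makes deoxynucleotides, Cdc45 is the helicase cofactor named above and Chaf1a places histones behind the fork. Mki67 had r of 0.77, geminin 0.82, Orc5 -0.07 and Rbl2 -0.66, and the neutrophil gene S100a8 0.18. For S100a8 this r joins opposite directions. Licensing levels were above their group mean in Selp high 4 and Selp low 4 but below it in Selp low-derived 2. These are the libraries highest in neutrophil and erythroid markers. Gene-wise biological coefficients of variation were 0.183 for Mcm2 to 0.370 for Mcm10, against a median of 0.235 over all tested genes.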

How the data were processed

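RNA of 14 sorted LT-HSC samples was sequenced. The authors deposited raw read counts per gene, 1 file per library in the layout that STAR writes, and the unstranded column was used. Per the submitters' processing notes, STAR 2.7.0d, FastQC 0.11.9, Picard 2.23.0 and the GRCm38 build were used; the sources used here do not name the annotation release or counting options. Between 4.20% and 4.79% of the read total was ambiguous between genes and between 9.93% and 13.4% mapped to several places, and neither entered the library sizes. Gene symbols and positions came from a GENCODE annotation that matched all 55450 identifiers, and promoter windows from RefSeq.

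Counts were filtered (minimum count 10, edgeR's group-aware filter), scaled by TMM (factors 0.963 to 1.042) and fitted with edgeR 4.0.16 in R 4.3.3 with 4 group means over all 14 libraries. A gene was called where its p, adjusted over all 16878 genes by the Benjamini-Hochberg method, was under 0.05. The contrasts were Selp high-derived minus Selp low-derived, Selp high minus Selp low, the difference of these, and after minus before transplantation for each input and averaged. Log2 CPM used a prior count of 2. DESeq2 1.42.0 and limma voom 3.58.1 were alternatives, and the edgeR steps were tested on simulated data. No pair of libraries of the same group agreed within sampling noise. Counting error is small at this depth, so the replicate spread limits precision.

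Before transplantation, libraries of the same number deviated from their group means together (r of 0.289 to 0.527, against -0.40 to 0.05 for other pairs) and come from 4 mice, so the number was taken as the mouse. After transplantation r was -0.05 to 0.02, so numbers only name libraries.

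The members and all gene lists were chosen with earlier results of these data known. The text names the 10 licensing genes, up to 5 genes of each replication list (2 with the smallest p before transplantation, 2 with the smallest p of after against before and the most expressed), the 10 most similar genes and marker genes. Fen1 is also named, for its low reads. The figures used matplotlib 3.10.9.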

Additional observations from a re-analysis of the deposited data

Results flagged for a closer look

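Mcm5 in Selp low replicate 4 stood apart from its group before transplantation, at 201 CPM against 157, 164 and 161 CPM in Selp low replicates 1 to 3. Its gap to the nearest library was 0.840 of the range of the group, above Dixon's 95% critical value for 4 samples. Of 20 groups of 4 examined for the licensing genes, 1 was picked out in this way, and chance picks out about 1 in 20.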

How the results depend on the processing

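Of the alternatives run, none changed a call or direction of a licensing gene for Selp high against Selp low cells or for after against before transplantation over both inputs and within the Selp high input. Within the Selp low input 7 genes were called with only its libraries fitted and 9 with voom. Leaving out 1 library, 2 to 10 were called (2 without Selp low-derived replicate 1, whose 8 lost genes had adjusted p of 0.055 to 0.249). Selp high-derived against Selp low-derived values turned without Selp low-derived 2 and Selp high-derived 1, and without the 3 libraries high in neutrophil markers: Mcm2 to -0.088 and -0.078, Mcm4 to -0.030 and -0.079, Mcm6 to -0.023 and -0.065, Mcm7 to -0.10 and -0.093, Cdt1 to -0.086 and -0.10, Mcm10 to -0.17 and -0.17; the difference of differences of Orc1 turned to -0.053 and -0.077. Mcm5 after transplantation became 0.10 with voom and 0.082 with the replicate block, which there joined libraries by number only. Leaving out 1 library gave, after transplantation, Mcm2 -0.079 to 0.40, Mcm4 -0.080 to 0.38, Mcm5 -0.29 to 0.40, Mcm6 -0.066 to 0.48, Mcm7 -0.094 to 0.45, Cdt1 -0.11 to 0.40 and Mcm10 -0.17 to 0.55, and Orc1 -0.29 to 0.37 for the difference of differences. The cause of these turns was not tested.

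Over all genes, the 0 calls between Selp high and Selp low became 1 with no filter, 11 with DESeq2, 2 with the replicate block and 0 to 2 with 1 library left out. Those after transplantation became 25 with DESeq2, 2 with the block and 1 without both libraries of mouse 4, and those of the difference of differences 11 with DESeq2. Calls within the Selp low input (1936) became 3207 with the block, 2999 without both libraries of mouse 4 and 803 to 2723 with 1 library left out; within the Selp high input (2573) they ran from 1423 to 2827. The replicate block changed no call of a licensing gene. It joined libraries by number also after transplantation and across stages. Numbers there only name libraries, so those block values do not reflect shared animals. Of the 10 most similar genes, 5 were shared when log2 CPM was used as it is. Fitting only the libraries compared could not differ for the contrasts that use all 14. The precision is limited by 3 or 4 libraries a group.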
